A study of Mus musculus with 6 samples.

Results

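The genes described here are 10 genes of the unfolded protein response (UPR) of the endoplasmic reticulum (ER): Hspa5, Hsp90b1, Dnajb9, Sdf2l1, Pdia4, Pdia6, Herpud1, Xbp1, Ern1 and Atf6. They were chosen by name, each matched 1 Ensembl ID among the 49315 genes of the count table, and all 10 passed the filter on low counts, as did 16033 genes in all. The data are RNA sequencing counts from TKO, a mouse ovarian cancer cell line named for a triple knockout whose genes the labels do not give. There were 3 libraries of MNRR1-knockout (KO) TKO cells, whose descriptions name a single clone. They were compared with 3 libraries of wild-type (WT) TKO cells, where WT refers to MNRR1 in a line itself named for a triple knockout. Effects of losing MNRR1 and traits of this clone cannot be told apart. The labels name no treatment. Whether replicates came from separate cultures is not stated, so p-values reflect the spread among these 6 libraries and that spread may be technical. In such bulk libraries, fewer cells of a kind and less RNA per cell cannot be told apart.

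The ER folds proteins bound for membranes and secretion. When unfolded proteins build up there, the membrane sensors IRE1 (Ern1), ATF6 and PERK (Eif2ak3) are activated. ATF6 is cut free from the Golgi membrane and IRE1 splices the Xbp1 mRNA, and the resulting transcription factors raise ER chaperones, disulfide isomerases and degradation factors. PERK phosphorylates eIF2alpha, which favours translation of ATF4, and ATF4 can also be raised by other eIF2alpha kinases without the ER branches. Hspa5 and its partners are therefore the usual readout of the ER branches, while Trib3, Asns and Ddit3 are read for ATF4, and the comparison of both groups asks which of them moved in MNRR1-deficient cells.

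MNRR1 is the product of Chchd2, a protein of mitochondria and nucleus. Its levels, like all levels below, are in CPM, a gene's reads per 1000000 counts of a library whose total was first corrected with TMM, the trimmed mean of M values. Chchd2 averaged 17.1 ± 0.498 CPM in KO against 352 ± 13.7 CPM in WT (mean ± SD, n = 3 per genotype here and below), 4.85% of the WT level, and the targeted gene matched the labels in all 6 libraries. Total counts ran from 33226463 to 40983999 per library. Of the marker lists, the 7 epithelial and ovarian markers summed to between 1388 and 1485 CPM for KO and between 2105 and 2255 CPM for WT, with Wt1 at 677 and 719 CPM, Krt8 at 283 and 480 CPM, and Pax8 at 0.0259 and 0.313 CPM. The 6 leukocyte markers summed to at most 0.712 CPM for KO and 6.40 CPM for WT, with Cd3e at 0, and the endothelial and erythroid lists summed to less than 1 CPM in every library. Of the 3 markers of plasma cells, cells known for high ER chaperone levels, Jchain and Mzb1 had means below 0.1 CPM in both genotypes, while Sdc1 fell with the ER chaperones, from 147 to 102 CPM (log2 fold change -0.52, adjusted p = 3.24e-05). Krt7 and Msln of the epithelial list fell by 1.88 and 1.38 on the log2 scale. The 4 fibroblast markers summed to 457 to 524 CPM for KO and 403 to 415 CPM for WT, and they split, with Col1a1 falling from 134 to 10.3 CPM, Col3a1 rising from 268 to 480.5 CPM and Thy1 at 0 counts in every KO library against 69, 92 and 85 counts in WT. The part of these marker shifts in the results was not tested. Among KO libraries, replicate 2 was the closest to WT, with correlations of log2 CPM across genes of 0.978 to 0.980 with WT libraries, against 0.966 to 0.973 for KO replicates 1 and 3.

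The short sequences that tie these genes to the UPR are shown first. The promoter windows came from RefSeq (GRCm38.p6, 250 bases before to 50 bases after each start, matched by symbol for 9 of the 10 genes). They were searched on both strands for the ER stress element ERSE, spelled CCAAT and CCACG with any 9 bases between them, for ERSE-II, spelled ATTGG and CCACG with any 1 base between them, for UPRE, spelled TGACGTGG, and for the C/EBP-ATF response element CARE, a motif bound by ATF4, spelled TGATGNAA. Only bases before the start are printed, from 5′ to 3′ on the strand of the gene, with the motif letters in capitals.
Hspa5, chr2:34772005-34772063, plus strand: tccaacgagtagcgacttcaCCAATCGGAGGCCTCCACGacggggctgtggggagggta
Hsp90b1, chr10:86705513-86705676, minus strand: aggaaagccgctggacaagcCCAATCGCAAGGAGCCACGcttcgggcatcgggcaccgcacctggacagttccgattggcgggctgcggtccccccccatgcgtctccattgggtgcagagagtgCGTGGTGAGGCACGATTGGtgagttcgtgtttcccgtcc
Pdia6, chr12:17266471-17266529, plus strand: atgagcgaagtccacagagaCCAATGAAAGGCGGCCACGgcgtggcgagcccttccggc
Herpud1, chr8:94386297-94386407, plus strand: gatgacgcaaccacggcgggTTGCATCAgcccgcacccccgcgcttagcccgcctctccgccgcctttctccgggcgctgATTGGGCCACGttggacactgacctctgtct

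Hspa5 and Pdia6 each held 1 ERSE and Hsp90b1 held 2, so 3 of the 9 windows had this motif, against 0.119% of 32851 windows. Herpud1 held an ERSE-II, found in 0.0365% of windows, and, further from the start, a CARE read on the other strand, found in 3.97% of windows. No 2 of these matches overlapped, and the windows of Dnajb9, Sdf2l1, Pdia4, Xbp1 and Ern1 held none of the 4 motifs as spelled. These are letter matches in a fixed window, and binding was not measured.

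**Figure D1:**
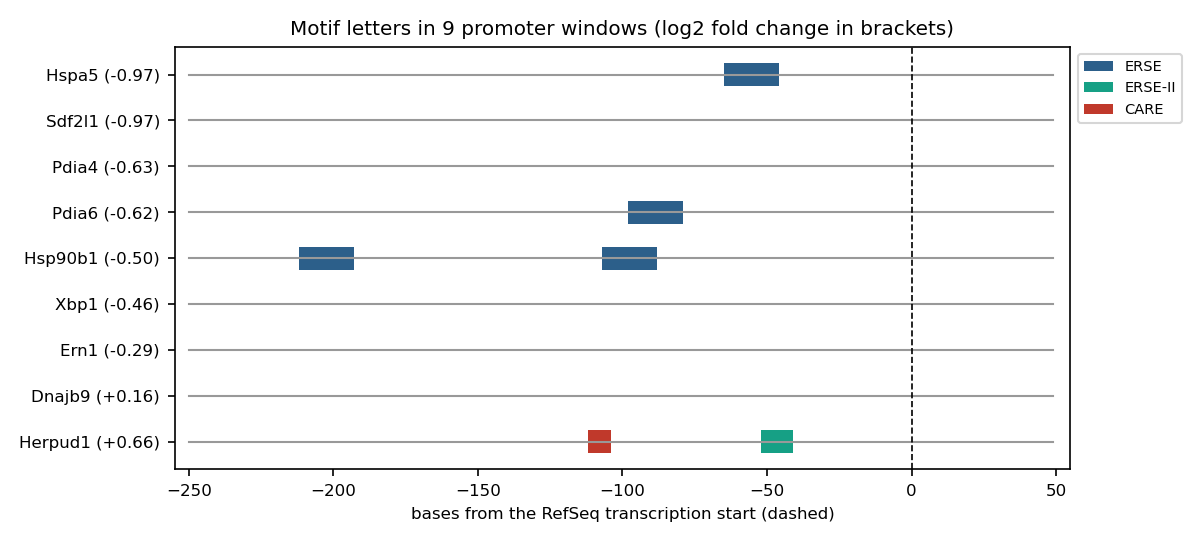
Positions of motif letters in the promoter windows of 9 ER unfolded protein response genes, in bases from the RefSeq transcription start, with genes ordered by their log2 fold change of KO over WT in brackets. Hspa5, Pdia6 and Hsp90b1, all lower in KO, carry ERSE letters, and Herpud1, higher in KO, carries ERSE-II and CARE letters.

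The 10 genes moved in both directions, and mostly down. By edgeR's quasi-likelihood test with Benjamini-Hochberg (BH) adjustment over all 16033 genes, 8 fell and 2 rose at an adjusted p under 0.05, where 27.8% of all tested genes were called lower and 27.8% higher (55.7% in either direction). Scaling by library totals alone, which moved the median log2 fold change of all genes to 0.13, turned that even split into 63.7% higher among the called genes, and then 7 of the 10 fell and 2 rose. The median log2 fold change of the 10 was -0.48, against 0.01 for all tested genes. KO and WT libraries did not overlap for any of the 10, with KO below WT for 8 and above WT for 2. Among all tested genes 64.0% showed no overlap, 31.9% with KO below WT and 32.1% with KO above. For 3 against 3 libraries an exact two-sided permutation test cannot give a p below 0.1, and it gave 0.1 for each of the 10. Together the 10 genes took 0.359%, 0.3595% and 0.340% of all counts in KO replicates and 0.536%, 0.515% and 0.506% in WT replicates.

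**Figure D2:**
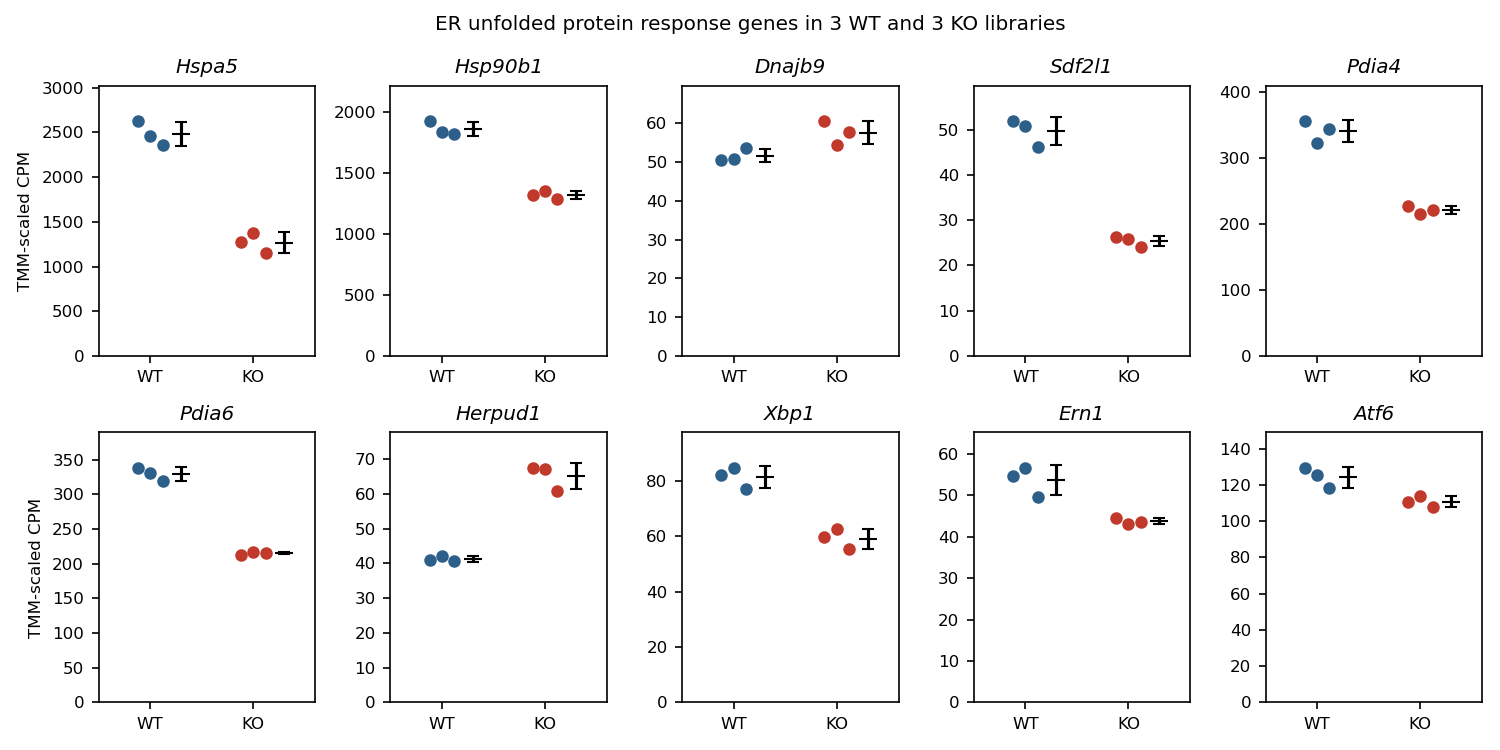
TMM-scaled CPM of the 10 genes in each library, with points for the 3 WT (blue) and 3 KO (red) libraries, the mean and SD in black, and an axis from 0 in each panel. KO points lie below all WT points for 8 genes and above them for Dnajb9 and Herpud1.

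Hspa5 (ENSMUSG00000026864, chr2:34771970-34777547, plus strand) encodes BiP, the Hsp70 chaperone of the ER lumen, which also holds the sensors inactive. It was at 1276, 1376 and 1150.4 CPM in KO replicates 1 to 3 and at 2625, 2465 and 2356 CPM in WT replicates 1 to 3. Every KO library had well under the lowest WT level, and the KO mean was 51.1% of the WT mean (log2 fold change -0.97, SE 0.07, adjusted p = 2.41e-06). Coordinates here and below are those of the gene in GENCODE M21 on GRCm38. A fitted fall at least as great was seen for 6.53% of all tested genes.

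Sdf2l1 (ENSMUSG00000022769, chr16:17130138-17132383, minus strand), which encodes a small ER protein that assists BiP and its J-domain partners, was lower by a like amount. Its level was 26.3, 25.8 and 24.1 CPM in KO replicates and 51.9, 50.9 and 46.1 CPM in WT replicates. The KO mean was 51.2% of the WT mean, with a log2 fold change of -0.97 (SE 0.07, adjusted p = 1.72e-06).

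Hsp90b1 (ENSMUSG00000020048, chr10:86690209-86705509, minus strand) encodes GRP94, the Hsp90 of the ER lumen, which folds integrins and Toll-like receptors. It was at 1324, 1354 and 1284 CPM in KO replicates and at 1926, 1838 and 1820.1 CPM in WT replicates. It fell to 70.9% of the WT mean (log2 fold change -0.50, SE 0.05, adjusted p = 2.41e-05). Hsp90b1 shares 415 exonic bases with the opposite-strand pseudogene 1810014B01Rik, which had 285 to 353 counts per library, against 46299 to 72309 for Hsp90b1. On the same strand it shares 84 exonic bases with Gm15344 and 133 with Gm25745. Strand setting and the handling of reads in shared bases are not stated. These overlaps could therefore add or remove reads, by an amount that was not measured.

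Pdia4 (ENSMUSG00000025823, chr6:47796141-47813430, minus strand) and Pdia6 (ENSMUSG00000020571, chr12:17266545-17284770, plus strand) encode disulfide isomerases that form and rearrange disulfide bonds in the ER. Pdia4 was at 227, 214 and 221 CPM in KO replicates and at 356, 322 and 343 CPM in WT replicates. Pdia6 was at 213, 216 and 216 CPM in KO replicates and at 338, 331 and 319 CPM in WT replicates. Both fell to about the same share of WT, 64.8% for Pdia4 (log2 fold change -0.63, SE 0.05, adjusted p = 5.42e-06) and 65.3% for Pdia6 (log2 fold change -0.62, SE 0.05, adjusted p = 2.98e-06). The falls of all 5 folding genes passed the test under each of the 15 alternative settings tried.

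Herpud1 (ENSMUSG00000031770, chr8:94386438-94395377, plus strand) encodes a membrane protein that helps assemble the complex for ER-associated degradation, in which misfolded proteins are passed to the proteasome. It went the other way, at 67.5, 67.1 and 60.7 CPM in KO replicates against 41.0, 42.1 and 40.6 CPM in WT replicates. The KO mean was 158% of the WT mean (log2 fold change 0.66, SE 0.06, adjusted p = 8.95e-06), and the rise passed the test under all 15 alternatives. Its count was 5.15 ± 0.236 per 100 Hspa5 counts in KO and 1.67 ± 0.0887 in WT, and a ratio within a library does not depend on scaling.

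Dnajb9 (ENSMUSG00000014905, chr12:44205559-44210326, minus strand) encodes ERdj4, a J-domain cochaperone of BiP that also acts in degradation and in holding IRE1 inactive. It was at 60.5, 54.4 and 57.8 CPM in KO replicates and at 50.6, 50.8 and 53.5 CPM in WT replicates. The lowest KO library was thus 0.904 CPM above the highest WT library, and the mean differed by 11.5%. Its log2 fold change of 0.16 (SE 0.06) was just past the threshold (adjusted p = 0.0464) and missed it in 11 of the 15 alternatives, among them each omission of a single library but that of KO replicate 2. Omitting KO replicates 1 and 3 gave an adjusted p of 0.189 and 0.0709, and omitting WT replicates 1, 2 and 3 gave 0.158, 0.152 and 0.0609. It also missed with DESeq2 (0.0792), limma voom (0.0523) and the replicate number as a block (0.0523).

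Of the sensor genes, Ern1 and Atf6 fell, as did Xbp1, while Eif2ak3 is described with the wider lists. Ern1 (ENSMUSG00000020715, chr11:106394650-106487852, minus strand), the gene of the kinase and ribonuclease IRE1alpha, was at 44.6, 43.1 and 43.6 CPM in KO replicates and at 54.8, 56.7 and 49.7 CPM in WT replicates. The KO libraries lay close together below the more scattered WT libraries, at 81.5% of the WT mean (log2 fold change -0.29, SE 0.06, adjusted p = 0.00236). Xbp1 (ENSMUSG00000020484, chr11:5520659-5525893, plus strand) was at 59.6, 62.4 and 55.3 CPM in KO replicates and at 82.1, 84.7 and 77.1 CPM in WT replicates. It fell to 72.7% of the WT mean (log2 fold change -0.46, SE 0.06, adjusted p = 1.24e-04).

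Atf6 (ENSMUSG00000026663, chr1:170704674-170867771, minus strand) was at 111, 114 and 108 CPM in KO replicates and at 129, 125 and 118 CPM in WT replicates, with the lowest WT library 4.41 CPM above the highest KO library. Its log2 fold change of -0.17 (SE 0.05) passed the test (adjusted p = 0.0204). It no longer passed when KO replicate 1 was omitted (adjusted p = 0.0706), when WT replicates 1 and 2 were omitted in turn (0.103 and 0.0723), at a threshold of 0.01, or with upper quartile (0.0739) or library total scaling, where the log2 fold change was -0.05 (adjusted p = 0.425).

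The activity of these sensors is not in gene counts, because ATF6 is activated by cleavage and XBP1 by splicing. The stretch that IRE1 removes from the Xbp1 mRNA is 26 bases long. It is shown in capitals, as the bases between the 2 cut sites, each of which lies within a motif spelled CNGCAGC, in GENCODE M21 transcript Xbp1-201.
Xbp1, chr11:5524264-5524319, plus strand: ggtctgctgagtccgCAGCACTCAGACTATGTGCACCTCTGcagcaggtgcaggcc
These capitals lie at chr11:5524279-5524304 of GRCm38 and in 3 of the 4 annotated Xbp1 transcripts, and 0 of the 4 have the flanks joined without them. Reads from both forms were summed in 1 gene count, so the share of spliced Xbp1 was not measured.

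Levels were compared between genes per kilobase (kb) of annotated exon, with all annotated exons of a gene merged. The order of genes therefore also depends on which exons are annotated, and the transcripts in use were not measured. In WT libraries Hspa5 was the most abundant of the 10 per length, at 587 ± 32.0 CPM per kb, above Hsp90b1 at 462 ± 14.1 CPM per kb, and the libraries of both genes did not overlap. In KO libraries Hsp90b1 was at 328 ± 8.68 and Hspa5 at 299.8 ± 26.8 CPM per kb, with overlapping libraries. Pdia4 and Pdia6 followed in both genotypes, at 92.0 and 57.4 CPM per kb in KO and 142 and 88.0 CPM per kb in WT libraries. Sdf2l1, Xbp1, Dnajb9 and Herpud1 came next in WT, at 44.8, 25.02, 20.3 and 17.7 CPM per kb. In KO the order was Herpud1 at 27.9, Sdf2l1 at 22.9, Dnajb9 at 22.6 and Xbp1 at 18.2 CPM per kb, and among these neighbours only the libraries of Sdf2l1 and Dnajb9 overlapped. Atf6 (11.98 in KO and 13.5 in WT) and Ern1 (5.36 and 6.57 CPM per kb) were last in both genotypes.

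The spread within a genotype was small beside the shifts of Hspa5, Sdf2l1, Hsp90b1, Pdia4, Pdia6 and Herpud1, and less so beside those of Dnajb9 and Atf6. Dnajb9 averaged 57.6 ± 3.05 CPM in KO and 51.6 ± 1.65 CPM in WT. Atf6 averaged 111 ± 3.05 CPM in KO and 124 ± 5.73 CPM in WT. KO replicate 3 had the lowest KO level for 6 of the 10 genes and WT replicate 3 the lowest WT level for 8 of the 10. Without KO replicate 2, the library nearest to WT, 8 of the 10 genes fell and 2 rose, with a median log2 fold change of -0.51. Without KO replicate 1, WT replicate 1 or WT replicate 2, 7 were called lower and 1 higher. Of all tested genes, 60.6% were called in either direction without KO replicate 2. The share was 46.1%, 46.1% and 46.3% without KO replicate 1, WT replicate 1 and WT replicate 2.

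Outside the 10, genes of the ER and comparison genes were taken from lists written when earlier results of these data were known. There were 166 further genes on 11 lists, and among all tested genes 27.8% were called higher and 27.8% lower. Of 14 tested partners of BiP and GRP94, 8 fell and 2 rose, with a median log2 fold change of -0.18, where 27.8% of all tested genes fell. With library totals 6 of the 14 fell and 2 rose, and the median was -0.06. In that setting 3294 of all 16033 tested genes fell and 5769 rose. Manf, a secreted ER stress protein that binds BiP, went from 269.9 ± 9.46 to 119 ± 15.9 CPM (log2 fold change -1.18, SE 0.08, adjusted p = 2.41e-06). Creld2, which encodes another ER stress-inducible protein, fell by 1.05 on the log2 scale, Dnajc3 (the cochaperone p58IPK) by 0.90, Hyou1 (the BiP exchange factor and large Hsp70 GRP170) by 0.88 and Dnajb11 (the cochaperone ERdj3) by 0.84. Sil1, the other exchange factor of BiP, rose from 24.7 ± 1.83 to 50.4 ± 13.0 CPM, a log2 fold change of 1.02 with widely spread KO libraries, and Cnpy2 rose by 0.49.

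Of 9 tested lectin chaperone and glycan processing genes, 6 fell and 1 rose (median log2 fold change -0.25), against 27.8% of all tested genes each way. Omitting KO replicate 2 made 2 rise, where 4938 of all 16510 tested genes rose. Omitting WT replicate 2 left 0, where 3827 of all 16529 rose. With library totals 4 fell and 3 rose (median -0.13), where 3294 and 5769 of all 16033 tested genes did. Calr and Canx, the genes of calreticulin and calnexin, were at -0.47 and -0.20, and Uggt1, the folding sensor that sends glycoproteins back to them, was at -0.57. The fall of Canx was lost with library totals (adjusted p = 0.128). Of 16 other disulfide isomerase and oxidase genes, 8 fell and 5 rose (median -0.14, or -0.02 with library totals), with Erp29 at -0.74, Txndc5 at -0.70, Pdia3 at -0.32 and P4hb at -0.24, while Qsox1, a sulfhydryl oxidase of the Golgi and secretory pathway, rose by 0.68. Of 16 translocation genes, 9 fell and 3 rose, with a median of -0.35 (-0.23 with library totals). Spcs3, a signal peptidase subunit gene, was at -0.75 and Ssr1, a subunit of the translocon-associated complex, at -0.55.

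Degradation and exit genes were more mixed. Of 24 tested genes of ER-associated degradation, 11 fell and 7 rose (median log2 fold change -0.15). These were 45.8% and 29.2% of the list, against 27.8% of all tested genes each way. Selenos, a membrane adaptor gene, was at -0.65, and Sel1l and Edem1 at -0.25 and -0.21. Erlec1, a lectin of this pathway, rose by 0.58, the ubiquitin ligase gene Rnf5 by 0.59 and Syvn1, the ligase HRD1 that pairs with Sel1l, by 0.30. The falls of Sel1l and Edem1 were lost with library totals (adjusted p = 0.0631 and 0.193), and that of Edem1 also without WT replicate 1 (0.0535). With library totals 5 of the 24 degradation genes were called lower and 9 higher (median -0.03), where 3294 and 5769 of all 16033 tested genes were. Without WT replicate 3, 4 degradation genes were called higher, where 4040 of all 16510 tested genes were. Of 14 genes of ER exit and KDEL retrieval, 2 fell and 5 rose (14.3% and 35.7%), with a median of 0.04. Omitting KO replicate 2 raised the count that fell to 4, and omitting KO replicate 1, WT replicate 1 or WT replicate 2 lowered it to 1. Of all tested genes, 5064 of 16510 fell without KO replicate 2. Without KO replicate 1, WT replicate 1 and WT replicate 2, 3799 of 16462, 3841 of 16563 and 3826 of 16529 fell. Sec23a, a COPII coat gene, rose by 0.38 and Kdelr1, a receptor that returns escaped ER proteins, by 0.31.

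Of 13 tested sensor and processing genes, 5 fell and 5 rose, 38.5% each way against 27.8% each way for all tested genes. Eif2ak3, the gene of PERK, was at 52.5, 46.2 and 47.3 CPM in KO replicates and at 37.0, 41.3 and 36.2 CPM in WT replicates. It rose, with no overlap between genotypes (log2 fold change 0.35, SE 0.07, adjusted p = 0.00192), whereas Ern1 and Atf6 fell. Atf6b, the gene of the ATF6 relative, averaged 87.9 ± 1.46 CPM in KO and 81.6 ± 1.36 CPM in WT, and missed the threshold (adjusted p = 0.0882), which it passed with upper quartile (0.0173) or library total scaling (0.00201). Mbtps1 and Mbtps2, the proteases that cut ATF6, were at 0.33 and -0.32 and both passed the test. The related membrane factor genes Creb3 and Creb3l2 were at -1.30 and -0.44, and Creb3l4 rose by 1.46 from a low level. Ern2, the second IRE1 gene, had too few counts to be tested.

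Of 6 reported substrates of IRE1-dependent mRNA decay, 2 were higher, 2 lower and 2 not called. The shares of 33.3% each way were near the 27.8% each way of all tested genes, and IRE1 activity was not measured. Bloc1s1, a widely used marker of this decay, rose from 8.65 ± 0.336 to 11.4 ± 0.831 CPM (log2 fold change 0.40, adjusted p = 0.00591). Pdgfrb rose by 2.14 and Sparc fell by 0.25 on the log2 scale. Scara3 had 2 counts over the KO libraries and 389 over the WT libraries. After division by the TMM-corrected library totals, the ratio of WT over KO was 205, with a 95% counting interval of 56.4 to 1699.

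The ATF4 and CHOP list stood on the other side, where 27.8% of all tested genes were higher and 27.8% lower. Of its 24 tested genes 19 were higher and 0 lower, with a median log2 fold change of 0.85 by edgeR. The count of lower genes was also 0 at an unadjusted p under 0.05 and by DESeq2 or limma voom, while without KO replicate 2 Mthfd2, a mitochondrial folate enzyme gene, passed as lower (log2 fold change -0.17, adjusted p = 0.00898). Trib3, a pseudokinase gene induced by ATF4 and CHOP, was at 35.5, 40.4 and 29.8 CPM in KO replicates and at 10.8, 12.3 and 12.03 CPM in WT replicates. The lowest KO library was far above the highest WT library, and the log2 fold change was 1.59 (SE 0.11, adjusted p = 1.39e-06). Asns, asparagine synthetase, rose by 0.94 and Ddit3, the gene of CHOP, by 0.59, from 14.8 ± 1.13 to 22.2 ± 0.949 CPM. Slc7a11, Fgf21, Ddit4 and Vldlr rose by 2.48, 2.01, 1.95 and 1.63. Atf4 mRNA averaged 393 ± 31.2 CPM with and 386 ± 14.9 CPM without the knockout, and its log2 fold change of 0.03 did not pass (adjusted p = 0.745). Scaling by library totals brought Atf4 past the threshold, at 0.15 (adjusted p = 0.0434), and without KO replicate 2 its sign turned, at -0.04.

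In human cells, HERPUD1 is known to be induced both through ERSE-II and by ATF4. The Herpud1 count per 100 Ddit3 counts was 293 ± 28.6 in KO and 281 ± 25.1 in WT libraries (exact two-sided permutation p = 0.5), with ranges of 261 to 313 and 253 to 301 that overlapped. This was 1 of 6 such ratios computed after the levels were seen, and the BH-adjusted p over them was 0.5. No ratio to Trib3 or Asns was computed. Herpud1 rose by 0.66 and Ddit3 by 0.59 on the log2 scale, and Asns and Trib3 rose by more, at 0.94 and 1.59. Whether ATF4 had a part in the rise of Herpud1 was not tested.

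**Figure D3:**
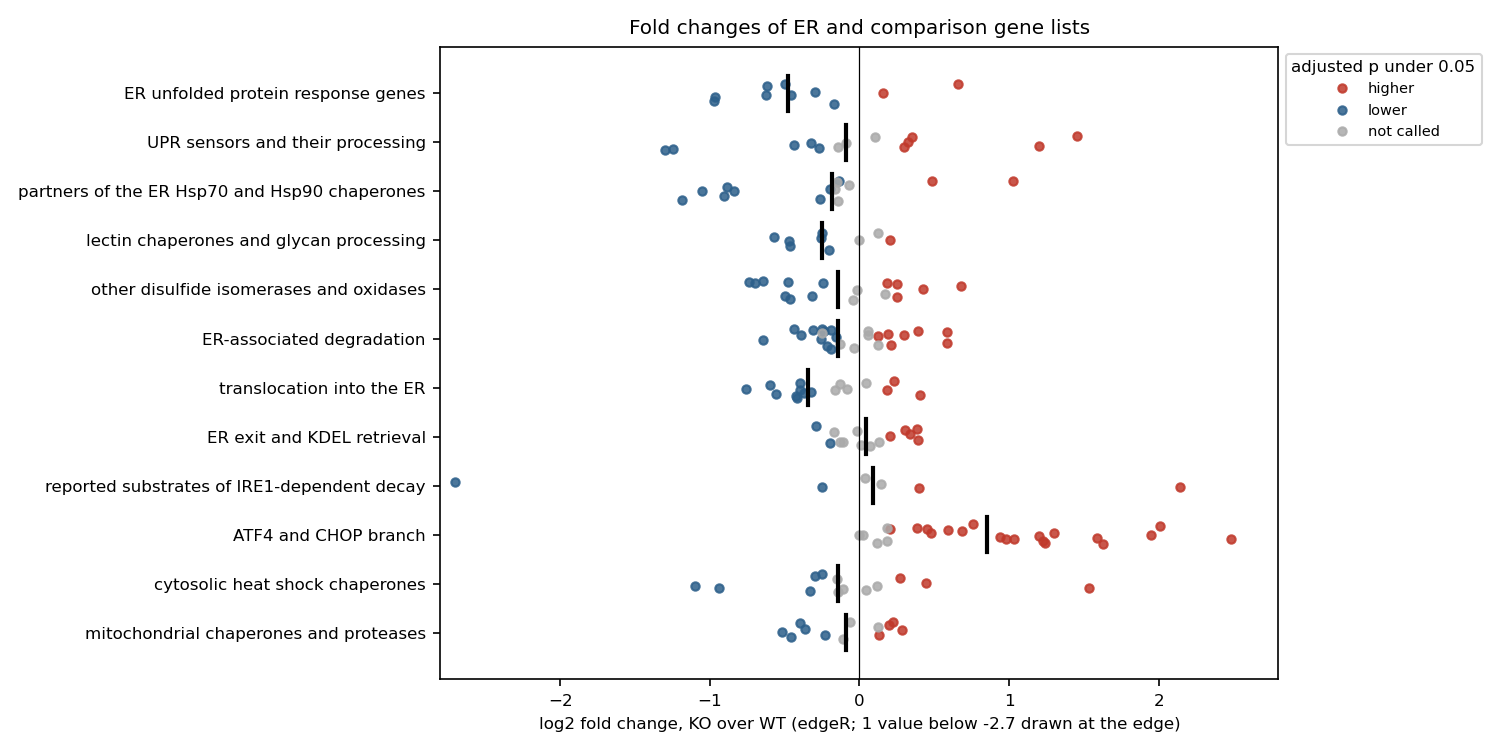
Fitted log2 fold change of KO over WT for each tested gene (points) by gene list, coloured by the call at an adjusted p under 0.05, with the list median as a black bar and Scara3, at -7.43, drawn at the left edge. The 10 ER unfolded protein response genes have a median of -0.48 and the ATF4 and CHOP list a median of 0.85.

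Of 9 tested Hsp70 and Hsp90 relatives of cytosol and mitochondria, Hspa8 and Hsph1 fell, Hspa1b, Hspa4l, Hspa9 and Trap1 rose, and Hspa4, Hsp90aa1 and Hsp90ab1 did not pass the test. The relatives outside the named set, Hspa4 at -0.14, Hspa4l at 0.27 and Hsph1 at -0.25, were added after their values were seen. The call of Hsph1 was lost with upper quartile scaling (adjusted p = 0.0510) and library totals (0.134). It was also lost with omission of KO replicate 1 (0.0757), WT replicate 1 (0.102) or WT replicate 2 (0.0570). Hspa4 passed as lower when KO replicate 2 was omitted (-0.21, adjusted p = 6.39e-04) and without a filter on low counts (-0.15, 0.0416). Hspa8, the constitutive cytosolic Hsp70, averaged 2097 ± 178 CPM in KO and 2641 ± 105 CPM in WT (log2 fold change -0.33, adjusted p = 0.00176). Hspa9, the mitochondrial Hsp70, rose by 0.20 (adjusted p = 0.0257), a call lost in 5 of 15 alternatives, among them the omission of KO replicate 1 (0.0511) or any 1 WT library (0.0727, 0.0842 and 0.0924 without WT replicates 1, 2 and 3). Hsp90aa1 and Hsp90ab1, the cytosolic Hsp90 genes, were at -0.15 and 0.05 and missed the threshold (adjusted p = 0.150 and 0.559). Without KO replicate 2, Hsp90aa1 was at -0.25 (adjusted p = 3.29e-04) and Hsp90ab1 at -0.01 (0.934). Hsp90aa1 also passed as lower without a filter on low counts, at -0.16 (0.0227), and Hsp90ab1 passed with library totals at 0.17 (0.0145). Trap1, the mitochondrial Hsp90, was at 0.13 (adjusted p = 0.0343), a call lost in 8 of 15 alternatives, with adjusted p up to 0.153. Among these, omission of KO replicate 1 gave 0.0668, and omission of WT replicates 1, 2 and 3 gave 0.135, 0.114 and 0.0833.

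Ratios within a library compare 4 pairs of these relatives directly and are free of scaling. There were 60.5 ± 2.29 Hspa5 counts per 100 Hspa8 counts in KO and 93.9 ± 1.53 in WT libraries, and 63.7 ± 2.07 per 100 Hspa9 counts in KO against 143 ± 6.63 in WT. Hsp90b1 counts per 100 Hsp90ab1 counts were 30.7 ± 1.19 in KO and 44.7 ± 1.07 in WT libraries, and per 100 Trap1 counts 783 ± 20.2 in KO and 1207 ± 50.3 in WT. KO and WT did not overlap for any of these 4 ratios or for Herpud1 over Hspa5, and each gave an exact two-sided permutation p of 0.1, the smallest possible, or 0.12 after BH adjustment over the 6 ratios.

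**Figure D4:**
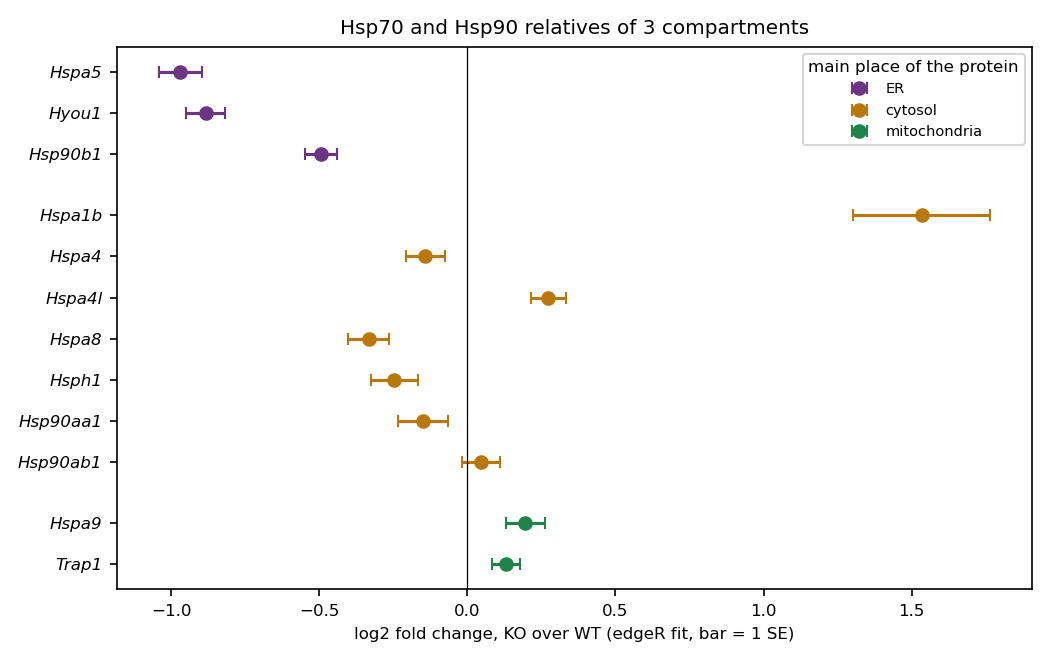
Fitted log2 fold change of KO over WT for Hsp70 and Hsp90 relatives, with bars of 1 SE and colours for the compartment of the protein. Hspa5, Hyou1 and Hsp90b1 of the ER are at -0.97, -0.88 and -0.50, and the 9 relatives of cytosol and mitochondria run from -0.33 (Hspa8) to 1.53 (Hspa1b, which had under 5 CPM in every library).

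As lists, 13 tested cytosolic heat shock genes had 3 higher and 5 lower, with a median log2 fold change of -0.14. These shares, 23.1% and 38.5%, stood against 27.8% each way for all tested genes. Without KO replicate 2, 8 were lower, where 5064 of all 16510 tested genes were. With library totals 5 were higher, where 5769 of all 16033 tested genes were. Hspb1 and Cryab, small heat shock protein genes, were at -1.10 and -0.94, and the inducible Hsp70 gene Hspa1b rose from 0.788 ± 0.130 to 2.28 ± 0.399 CPM. Of 12 mitochondrial chaperone and protease genes, 4 rose and 5 fell (33.3% and 41.7%, median -0.09). Without KO replicate 1 or any 1 WT library, 2 rose. Among all tested genes, 3786 of 16462 rose without KO replicate 1. Without WT replicates 1, 2 and 3, 3793 of 16563, 3827 of 16529 and 4040 of 16510 rose. In the fit of all libraries Hspe1 was at -0.52, Grpel1 at -0.46 and Hspd1 at -0.37.

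Of the ER genes on these lists with an ERSE in the promoter window, Creld2, Dnajc3, Calr and Canx fell like Hspa5, Hsp90b1 and Pdia6, Syvn1 rose, and Derl3 averaged 2.48 ± 0.857 CPM in KO and 2.94 ± 0.377 CPM in WT and did not pass (adjusted p = 0.409). ERSE-II letters, as in Herpud1, were also found for Dnajb11, which fell, and Nucb1, a calcium-binding protein gene, which rose by 0.30.

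**Figure D5:**
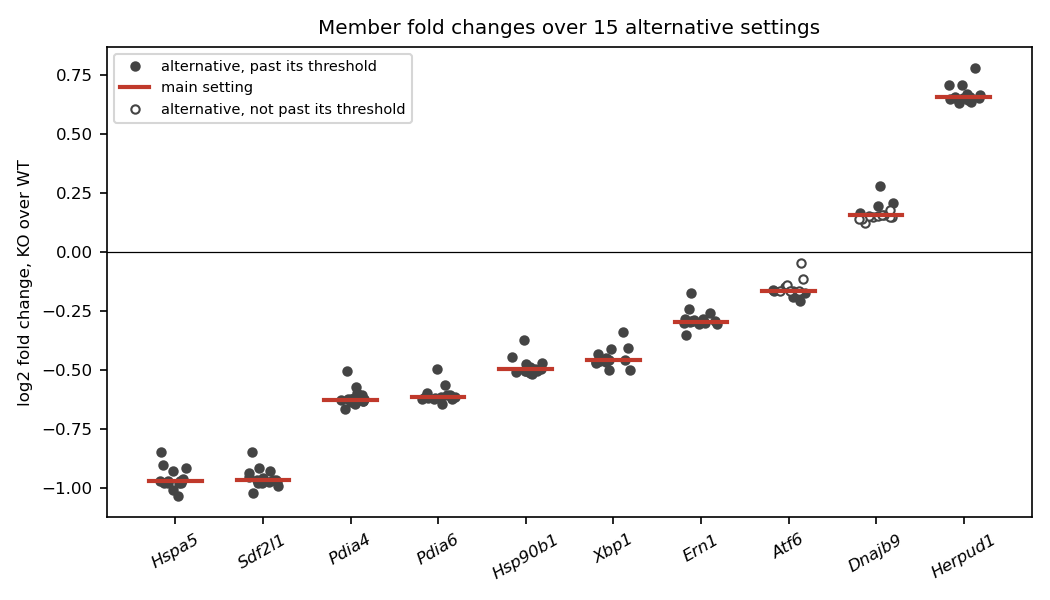
Log2 fold change of KO over WT for each of the 10 genes under the main setting (red line) and 15 alternatives (points, open where the call was not made). The points of each gene stay on 1 side of 0, and open points occur for Dnajb9 and Atf6.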

How the data were processed

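Total RNA of 3 KO and 3 WT libraries was sequenced. The authors deposited a whole-number read count for each Ensembl gene. Build GRCm38 (mm10), STAR 2.5.2b, Trimmomatic 0.36, DESeq2, Subread 1.5.2 and bcl2fastq 2.17 are named, per the submitters' processing notes. Annotation release, strand setting and multimapping: not given in the sources used here. Symbols, coordinates and exon lengths came from GENCODE M21 (GRCm38), which matched 49056 of 49315 IDs.

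Counts were filtered with filterByExpr (minimum count 10), scaled by TMM and fitted with edgeR 4.0.16 (R 4.3.3, robust quasi-likelihood, genotype only), with BH adjustment over 16033 genes. The code was tested on simulated data. Each SE (standard error) of an edgeR log2 fold change was derived from the test. It was the absolute log2 fold change divided by the square root of the F statistic. Intervals cover counting error only. Alternatives were other scalings, filters, DESeq2 1.42.0, limma voom (limma 3.58.1), a replicate block, a threshold of 0.01 and omission of each library.

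The 10 genes, lists and ratios were chosen with earlier results of these data known. Named genes were the 10, Chchd2, a fixed set of pathway genes and up to 4 further called genes of at least 1 CPM per list; Derl3 was chosen for its promoter letters. No sequence is shown for Atf6.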

Additional observations from a re-analysis of the deposited data

How the results depend on the processing

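Over 15 alternatives, the count of the 10 genes called lower was 7 or 8, against 8. The count called higher was 2 in the main setting and 1 with DESeq2 size factors, no filter, DESeq2, limma voom, the replicate block or a threshold of 0.01, and from 1 to 2 when 1 library was left out, since Dnajb9 lost its call. Over all genes, 4463 rose and 4463 fell, and 5769 and 3294 with library totals (63.7% higher), where the median log2 fold change of all genes was 0.13. Leaving out 1 library gave Atf4 a log2 fold change from -0.0426 to 0.0647 and Hsp90ab1 one from -0.00503 to 0.0899, both negative without KO replicate 2. Signs also turned for the medians of the sensor list (0.0285) and the mitochondrial chaperone list (0.0322) with library totals; the cause was not tested. KO and WT libraries share replicate numbers, but same-numbered libraries did not deviate together (correlations of -0.08, 0.06 and 0.06 across genes), so the numbers were not taken as pairs, and with the replicate number as a block 4411 genes rose and 4466 fell, with 8 of the 10 genes lower and 1 higher. Low counts left Ern2, Clgn, Pdia2, Gdf15 and Hspa1a untested.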

Other observations

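The motif letters were also read against all tested genes that have a promoter window. There were 10779 of these, of which 29.7% were called higher and 31.45% lower, at a median of -0.01 (log2). The 20 with an ERSE had 5 higher and 10 lower (median -0.23), a group that includes 3 near-identical Xlr3 copies whose reads may be shared. Most of the lower ones, Hspa5, Hsp90b1, Pdia6, Creld2, Dnajc3, Calr and Canx, were already described above, so the group is not separate support. The lower genes from outside the lists were Ptgdr2, Hnrnpa3 and Zfp57, and the higher ones were Xlr3b, Pan2, Acacb and Gm20560. The 301 with a CARE, spelled TGATGNAA, had 41.2% higher and 25.6% lower (median 0.16), and the 111 with UPRE letters had 30 higher and 40 lower (median -0.07). Among 23 genes of the ATF4 and CHOP list with a window, 8 held CARE letters and 0 held ERSE letters. No test was made of these groups.

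Among 9555 tested genes of at least 5 CPM in every library, other than the 10, those whose log2 CPM tracked Hspa5 most closely over the 6 libraries were Hyou1, Arf6, Pfas, Cyp1b1 and Dnajc10, with Pearson correlations of 0.9989 to 0.9995. These are descriptions over 6 libraries that share the genotype shift. Hyou1 and Dnajc10 encode ER chaperones, Arf6 a small GTPase, Pfas a purine synthesis enzyme and Cyp1b1 a cytochrome P450. Cyp1b1 fell from 270.1 ± 32.0 to 65.4 ± 10.3 CPM and Dnajc10 from 141 ± 3.06 to 117 ± 2.75 CPM.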
